A study of Mus musculus with 16 samples.

Results

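Retinas of 2-week-old mice lacking Gtf2ird1 were compared with those of wild-type (WT) mice of the same age. The comparison uses the 8 of 16 arrays whose titles give 2 weeks, 4 titled BEN-NULL and 4 titled WT. Each gene was represented by its table row with the highest mean signal among rows naming 1 gene, and its difference is the mean of the null arrays minus the mean of the WT arrays on the log2 scale. A row is a transcript cluster of the Affymetrix Mouse Exon 1.0 array, a set of probes over the exons of 1 transcript unit. The series also holds 4 null and 4 WT arrays of older retinas, 4 months in the titles and 2 months in 1 protocol, called 4 months here.

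In the null group the mice were null for Gtf2ird1, and the titles call them BEN-NULL. The design of the allele, the strain and the sex of the animals are not given in the sources used here. In the WT group RNA came from age-matched WT retinas. Each array carries RNA from 1 retina, and the labels call the 4 of a group biological replicates.

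GTF2IRD1, also known as BEN, is a DNA-binding protein of the TFII-I family, whose human gene lies in the chromosome region deleted in Williams syndrome. Cones are the photoreceptors of daylight vision. In mice their M and S opsins are distributed in opposing gradients across the retina, and thyroid hormone receptor beta and retinoid X receptor gamma take part in setting them. At 2 weeks mouse eyes are about to open and photoreceptor outer segments are still growing.

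The 8 arrays were not alike in everything but genotype. Xist, the RNA of the inactive X chromosome, read 12.7 and 13.2 in WT replicates 1 and 4 and between 4.64 and 4.79 in the other 6 arrays, so that no null array but 2 WT arrays were of the female type. WT replicate 1 stood apart in a further way: 580 genes lay over 1 log2 unit from the mean of the other WT arrays, against 16 to 162 genes for the other 7 arrays, and its median signal was 5.55, against 5.31 to 5.42 elsewhere. Transcripts of neighbouring tissue also differed. The mean of 20 lens genes was 8.84 to 11.97 in null arrays and 7.38 to 9.51 in WT arrays. The mean of 21 genes of the pigment epithelium was 6.98 to 7.37 in null arrays and 6.37 to 6.98 in WT arrays, while the mean of 4 red cell genes was 6.39 to 6.73 in null arrays and 6.35 to 8.08 in WT arrays. The retina itself was evident in each array, with the mean of the rod genes between 11.999 and 12.08 in null arrays and between 12.004 and 12.21 in WT arrays. The cornea marker Krt12 read 5.16 to 5.39 in null arrays and 5.24 to 5.56 in WT arrays.

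**Figure D1:**
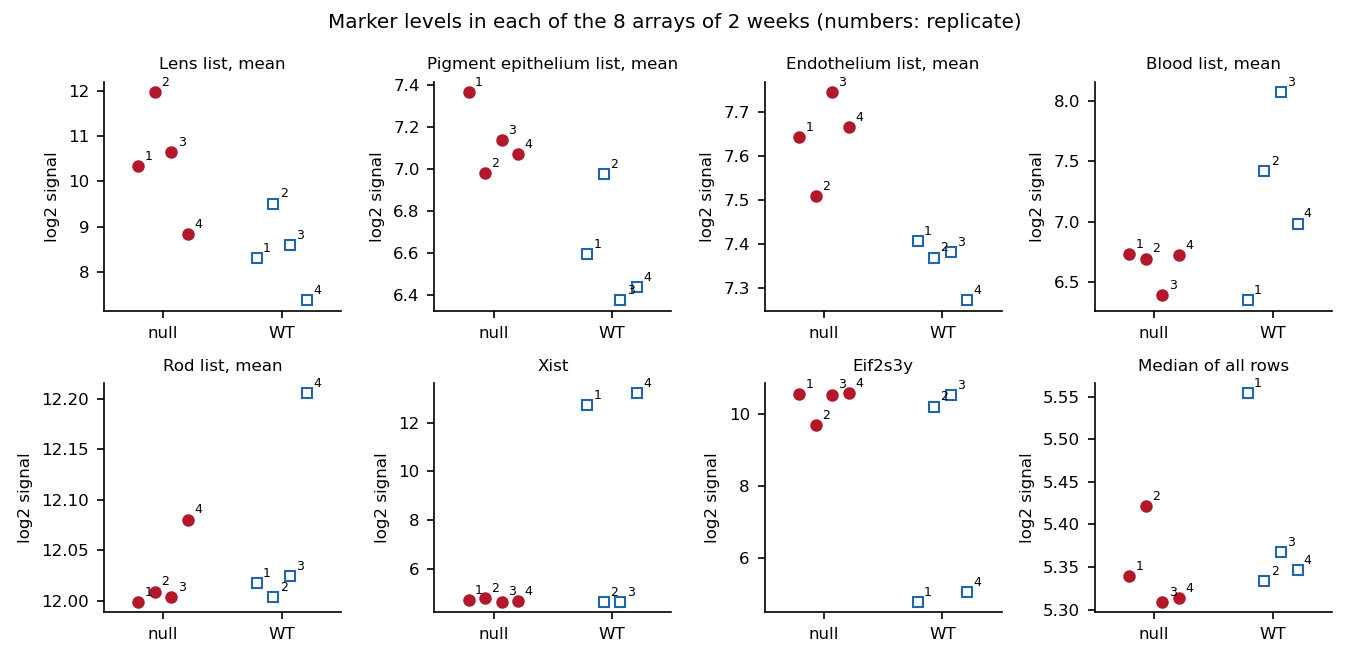
Log2 signal of marker lists (means over their members), of Xist and the Y-linked Eif2s3y, and the median of all rows, for each of the 4 null arrays (filled circles) and 4 WT arrays (open squares) of 2 weeks, numbered by replicate. Xist was high in WT replicates 1 and 4, the endothelium means of the null arrays all lay above those of the WT arrays, and WT replicate 1 had the highest median.

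The targeted gene was examined first. Of the 4 rows that carry the Gtf2ird1 symbol, row 7007348 read 4.86, 4.81, 4.62 and 4.53 in null replicates 1 to 4, against 8.73, 9.41, 9.25 and 9.24 in WT replicates 1 to 4. Rows 7008286 and 7008402 had null readings of 4.64 to 5.29, against 8.22 to 9.11 in WT. Null arrays thus lay more than 3 log2 units below every WT array in these 3 rows, by at least 21.9-fold, 13.5-fold and 14.4-fold on average, lower bounds because the null readings lie near the bottom of the array's range (two-sided exact permutation p = 0.0286 each, the smallest that 4 against 4 arrays allow). Row 7008782, which has the highest mean and stands for the gene in the fit, read 10.41, 10.39, 10.60 and 10.38 in null and 10.32, 10.26, 10.24 and 10.28 in WT arrays. It was therefore not lost with the other 3 rows: all null arrays lay slightly above all WT arrays (difference 0.17, exact p = 0.0286, limma adjusted p = 0.395). All 4 rows lie in a section of the table that mixes chromosomes, and which exons they cover is not given. Gtf2i and Gtf2ird2, the other genes of the family, differed by 0.06 and 0.08 (limma adjusted p = 0.821 and 0.861). Of 25 measured genes around Gtf2ird1 in the Williams region, 1 was called: Cldn4, a tight junction claudin, read 4.87 ± 0.0803 in null and 5.32 ± 0.160 in WT (SD, n = 4 each, difference -0.45, limma adjusted p = 0.0263). That call did not pass without any 1 of null replicates 1, 2 and 4 or of WT replicate 3 (differences of -0.46 to -0.41). Both groups of Cldn4 lay near the bottom of the array's range, at 4.78 to 4.97 in null and 5.22 to 5.56 in WT arrays. The 3 lost rows of Gtf2ird1 read 4.53 to 5.29 in null arrays.

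Across all genes, 214 of 20259 were called, meaning that their limma p adjusted by Benjamini-Hochberg over all genes was under 0.05, which is 1.06% of those tested. In null retinas 128 were higher (0.632%) and 86 were lower (0.425%), and 23 of them have predicted names and are not named here. Most differences were small: the median size among called genes was 0.67 log2 units, 32 exceeded 1 log2 unit (a 2-fold difference) and 42 were under 0.5. The 4 null arrays did not overlap the 4 WT arrays in 209 of the called genes. They did not overlap in 1180 of all genes (5.82%), of which 636 were higher in null (3.14%) and 544 lower (2.69%). Over all genes the 1st and 99th percentiles of the difference were -0.51 and 0.70, with a median of -0.02. The number of calls depended on the arrays: leaving out null replicate 1, 2 or 3 gave 91, 138 and 112, and leaving out WT replicate 1, 3 or 4 gave 525, 77 and 112. With a term for the level of the lens list it was 66, with a term for sex 109, and in a fit of these 8 arrays alone 43. Because the spread is pooled over 4 groups, the p-values measure the spread between retinas of all groups.

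Among called genes with a name other than a predicted one and with groups apart, the largest rise was that of Cux2, a homeobox transcription factor of the Cut family known from neurons of the upper cortical layers. Cux2 read 8.50, 8.79, 9.08 and 8.60 in null replicates 1 to 4, against 6.62, 6.75, 7.02 and 6.78 in WT replicates 1 to 4. The lowest null array was above the highest WT array by more than 1 log2 unit (difference 1.95 ± 0.126 SE, 3.86-fold, limma adjusted p = 8.85e-07). Its other rows, 6941709 and 6941708, overlapped between groups, with differences of 0.27 and 0.13. Cux2 lies on chromosome 5, as Gtf2ird1 does, and a part of that shared chromosome in its rise was not tested. Of the other 5 measured Cut and SATB genes none was called, among them Onecut1 (0.36, limma adjusted p = 0.0926) and Cux1 (0.27, limma adjusted p = 0.280).

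Fabp7 binds fatty acids in neural progenitors and glia. It read 9.50, 8.64, 8.81 and 8.95 in null arrays, against 7.10, 7.27, 7.28 and 7.27 in WT arrays. The WT arrays were nearly equal and all null arrays lay well above them (difference 1.75 ± 0.143 SE, 3.36-fold, limma adjusted p = 1.04e-05). Haus8, a subunit of the augmin complex that seeds microtubules in the mitotic spindle, read 7.97, 8.29, 8.42 and 8.62 in null arrays, against 6.92, 6.10, 6.62 and 6.87 in WT arrays. Its groups were also apart (difference 1.69 ± 0.159 SE, 3.23-fold, limma adjusted p = 3.03e-05), and its second row differed by 1.94. Rxfp1, the receptor of relaxin, was low in WT, at 5.02, 4.79, 4.88 and 4.91, where null arrays read 6.20, 5.87, 5.86 and 6.36 (difference 1.17 ± 0.103 SE, limma adjusted p = 1.76e-05).

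The other 11 of the 15 largest rises were of smaller size or larger spread. Cox8b, an isoform of cytochrome c oxidase subunit 8 found mainly in muscle and brown fat, rose by 1.60. Bpifb6, of the BPI-fold lipid-binding family, rose by 1.41, and all 3 of its rows had null arrays above WT arrays. Pon1, the serum paraoxonase, rose by 1.29 from a WT mean of 4.86, and its 4 null arrays spread between 5.33 and 6.63. Also higher were Cltrn, the amino acid transport protein collectrin (1.16), Thbs4, a matrix thrombospondin (1.11), Plk1, a mitotic kinase (1.09), and Grp, the gastrin-releasing peptide (1.06). Cyp3a44, a cytochrome P450, followed with 1.00, measured by a row in the section of mixed chromosomes. Faim, an inhibitor of Fas-driven apoptosis (0.99), Lhx9, a LIM homeobox gene (0.95), and Rtkn2 (0.95) complete the 15. Limma adjusted p-values of these 11 lay between 0.00125 and 0.0292. The calls of Cox8b and Cltrn did not pass without any 1 of null replicates 1, 3 and 4 or of WT replicates 3 and 4 (Cox8b 1.43 to 1.63, Cltrn 1.01 to 1.22). That of Grp did not pass without null replicate 3 (1.00), and that of Rtkn2 without any 1 of the 4 null replicates or of WT replicates 3 and 4 (0.87 to 1.01).

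Under the same conditions the largest fall was that of Akr1e1, an aldo-keto reductase. It read 7.96, 8.40, 8.73 and 8.20 in null arrays, against 9.94, 10.44, 11.32 and 11.55 in WT arrays. Every null array lay more than 1 log2 unit below every WT array (difference -2.49 ± 0.342 SE, 5.61-fold lower, limma adjusted p = 0.00167). Cdcp3, a CUB domain protein, read 6.30, 6.41, 6.80 and 6.78 in null arrays, against 7.90, 9.58, 8.92 and 9.53 in WT arrays (difference -2.41 ± 0.274 SE, limma adjusted p = 0.000327).

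DNA repair genes were among the next. Ercc5, the XPG endonuclease of nucleotide excision repair, read 7.03, 6.40, 6.95 and 7.11 in null arrays, against 8.52, 8.34, 8.71 and 8.80 in WT arrays. The groups were apart by over 1 log2 unit (difference -1.72 ± 0.144 SE, 3.30-fold lower, limma adjusted p = 1.04e-05). Its second row overlapped between groups and differed by -0.34. Ercc2, the XPD helicase of TFIIH, read 7.53, 7.02, 7.59 and 7.85 in null arrays, against 8.52, 8.50, 8.49 and 8.98 in WT arrays (difference -1.13 ± 0.164 SE, limma adjusted p = 0.00248). These 2 were the called members of 26 measured nucleotide excision repair genes, whose median was 0.00. The remaining 24 lay between -0.15 (Ercc8) and 0.33 (Lig1, limma adjusted p = 0.395).

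Ppara, the nuclear receptor for fatty acids that drives their oxidation, read 7.89, 7.75, 7.98 and 7.56 in null arrays, against 9.33, 8.98, 9.36 and 9.09 in WT arrays. Its null arrays were all below the lowest WT array (difference -1.39 ± 0.129 SE, 2.63-fold lower, limma adjusted p = 2.74e-05), and its 3 other rows differed by -0.62 to -1.54. Ppara was the called member of 21 measured PPAR and fatty acid oxidation genes, with a median of -0.04. The enzyme genes that PPARA is known to control were not called, with Acadm at -0.44, Ehhadh at -0.15, Pdk4 at 0.00 and Cpt1a at 0.02. Among 12 fatty acid and retinoid binding proteins Fabp7 was the called one. Fabp5, whose row lies among rows of another chromosome, differed by 2.49 with null arrays between 7.39 and 12.8 and WT arrays between 7.13 and 9.56 (limma adjusted p = 0.351).

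The other falls were Pde6h (described with the cone genes), Duxbl1, a double homeobox gene (-1.41), Lrrc66 (-1.29), Pla2g4e, a cytosolic phospholipase A2 (-1.18), and H2ac6, a histone H2A gene (-1.12). Serpine3, a serpin (-1.07), Dnah7b, an axonemal dynein heavy chain (-1.05), Ahrr, the repressor of the aryl hydrocarbon receptor (-1.004), Pla2r1, a phospholipase A2 receptor (-0.997), and Lrrc57 (-0.99) complete the 15. Pla2r1 had the smallest standard error among them, with 9.50 to 9.63 in null and 10.38 to 10.71 in WT arrays (limma adjusted p = 1.04e-05). Several of these ended near the floor of the array in null retinas: H2ac6 read 4.70 to 5.26, Serpine3 5.08 to 5.56 and Pla2g4e 5.54 to 5.64, beside 4.53 to 5.29 for the 3 lost rows of Gtf2ird1. The call of Ahrr did not pass without any 1 of null replicates 1 and 2 or of WT replicates 3 and 4 (-0.96 to -0.84), nor that of Lrrc57 without WT replicate 3 (-0.92).

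**Figure D2:**
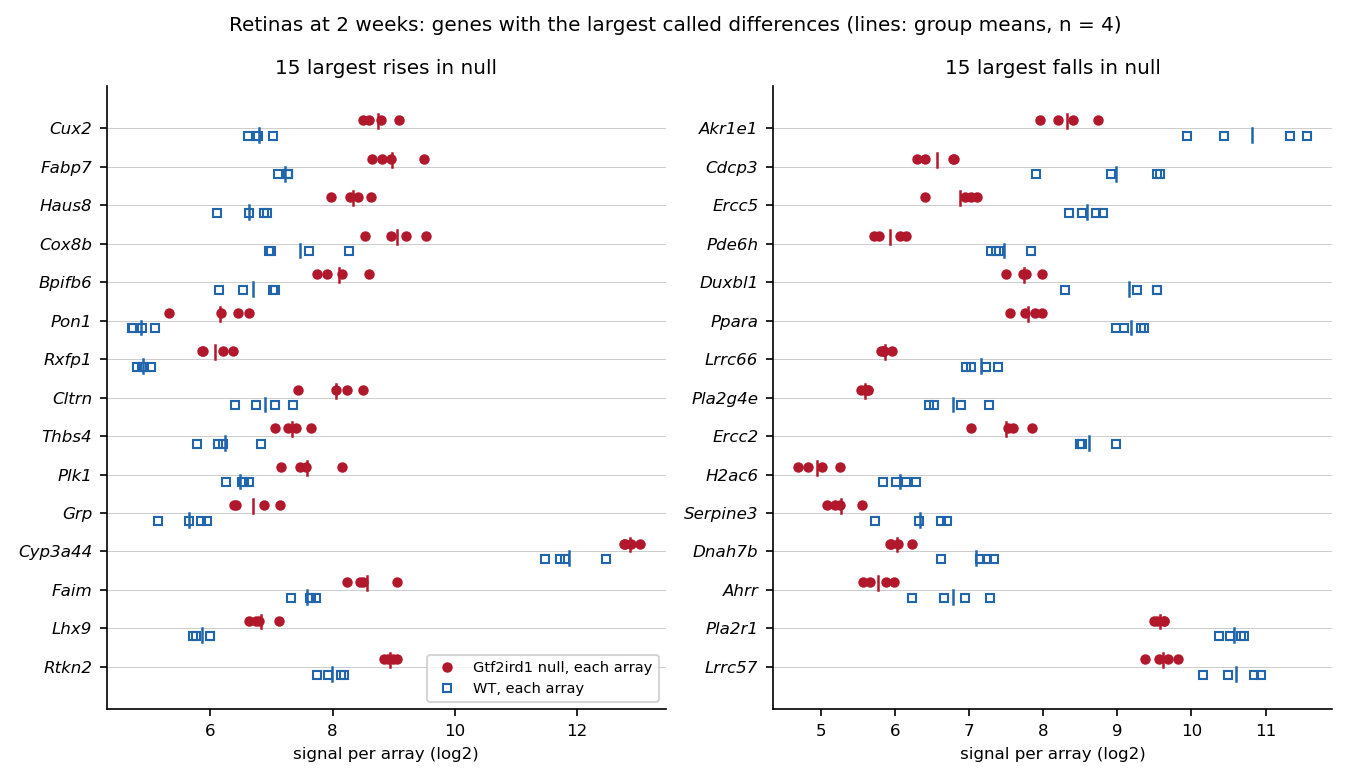
Log2 signal in each array for the 15 largest rises (left) and 15 largest falls (right) among called genes whose groups do not overlap, with filled circles for null, open squares for WT and vertical lines for group means (n = 4 each). Cux2 and Fabp7 show null arrays far to the right of WT arrays, while Akr1e1 and Cdcp3 show wide WT spreads to the right of null.

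The title of the series ties the gene to cone gene expression. Of 20 measured genes of cone opsins and cone phototransduction, 2 fell and none rose, and their median was -0.13, against -0.02 over all genes. Pde6h, the inhibitory gamma subunit of the cone phosphodiesterase, read 5.72, 5.79, 6.06 and 6.16 in null arrays, against 7.29, 7.83, 7.41 and 7.36 in WT arrays. The groups were apart by over 1 log2 unit (difference -1.54 ± 0.180 SE, 2.91-fold lower, limma adjusted p = 0.000380). Arr3, cone arrestin, read 11.32, 11.19, 11.33 and 11.50 in null arrays, against 11.47, 11.97, 12.13 and 12.14 in WT arrays. Null replicate 4 lay just above WT replicate 1, so that these groups overlap (difference -0.59 ± 0.123 SE, limma adjusted p = 0.0283). The call of Arr3 did not pass without any 1 of null replicates 1, 2 and 3 or of WT replicates 2, 3 and 4 (-0.59 to -0.52).

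The 2 cone opsins leaned in opposite directions, and neither difference passed in the fit of all 16 arrays. Opn1sw, the S opsin, read 13.05, 13.04, 13.02 and 13.12 in null arrays, against 12.66, 12.75, 12.89 and 12.73 in WT arrays. Opn1mw, the M opsin, read 12.32, 12.54, 12.36 and 12.42 in null arrays, against 12.66, 12.67, 12.73 and 12.76 in WT arrays. All null arrays were thus above all WT arrays for Opn1sw (difference 0.30 ± 0.0820 SE, limma adjusted p = 0.102) and below them for Opn1mw (difference -0.30 ± 0.0750 SE, limma adjusted p = 0.0752). Opn1mw did pass under quantile normalization (-0.36), eBayes with trend and robust (-0.30), array weights (-0.34) and without WT replicate 1 (-0.31), with limma adjusted p-values of 0.0236 to 0.0494. Pde6c, the catalytic subunit that PDE6H inhibits, differed by -0.60 with overlapping arrays (limma adjusted p = 0.124), and passed with array weights (-0.78), without both WT arrays of high Xist (-0.72) and without WT replicate 1 (-0.82, limma adjusted p = 0.00184). The transducin subunits Gnat2, Gnb3 and Gngt2 differed by -0.13, 0.08 and 0.05, and the channel subunits Cnga3 and Cngb3 by 0.24 and -0.17, with limma adjusted p-values from 0.616 to 0.900.

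Among 10 further genes of cone identity, a list that holds Pde6h and Fabp7 again, 2 rose and 2 fell (median 0.17). That is 40% called, against 1.06% over all genes, in a short list chosen with earlier results of these data known. Fabp7 is also counted with the progenitor genes, so its rise in bulk RNA cannot be assigned to cones. Kcne2, a potassium channel beta subunit, read 6.68, 6.66, 6.19 and 6.72 in null arrays, against 7.19, 7.49, 7.51 and 7.57 in WT arrays (difference -0.88 ± 0.139 SE, limma adjusted p = 0.00511). Cckbr, the cholecystokinin B receptor, read 7.25, 7.22, 7.42 and 7.48 in null arrays, against 6.33, 6.70, 6.95 and 6.61 in WT arrays (difference 0.70 ± 0.155 SE, limma adjusted p = 0.0401). Both pairs of groups were separate, but the call of Cckbr did not pass without any 1 of the 4 null replicates or of WT replicates 1, 2 and 4 (0.59 to 0.74). The call of Kcne2 did not pass with the lens term, in all 16 arrays (-0.76, limma adjusted p = 0.0739) or in the 8 (-0.81, limma adjusted p = 0.614). Rxrg, the retinoid X receptor of cones, read 7.22, 7.33, 7.41 and 7.50 in null arrays and 6.36, 7.09, 6.96 and 6.41 in WT arrays. All its null arrays lay above the WT arrays and its test did not pass (difference 0.66 ± 0.162 SE, limma adjusted p = 0.0660), but did without WT replicate 2 (0.79, limma adjusted p = 0.0249). Thrb, the thyroid hormone receptor that sets the M opsin, differed by -0.04 (limma adjusted p = 0.917).

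The promoters of the 3 phototransduction and channel genes that fell are shown, since binding of GTF2IRD1 and of the photoreceptor homeodomain factors CRX and OTX2 has been described at the letters GGATTA or, on the other strand, TAATCC. The windows span 250 bases before and 50 bases from the annotated start, from the RefSeq promoter table of build GRCm38.p6, 5′ to 3′ on the gene's strand. Capitals mark the shorter core GATTA or its reverse TAATC, searched on both strands and chosen after the full motif had been looked for. The windows are Arr3 at chrX:100605247-100605546 (plus strand), Kcne2 at chr16:92292139-92292438 (plus strand) and Pde6h at chr6:136954273-136954572 (plus strand).
Arr3: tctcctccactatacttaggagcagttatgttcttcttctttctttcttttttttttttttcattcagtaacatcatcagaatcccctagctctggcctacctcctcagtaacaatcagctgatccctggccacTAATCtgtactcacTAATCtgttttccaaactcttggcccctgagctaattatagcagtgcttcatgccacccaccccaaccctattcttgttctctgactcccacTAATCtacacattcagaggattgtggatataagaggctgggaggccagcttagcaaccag
Kcne2: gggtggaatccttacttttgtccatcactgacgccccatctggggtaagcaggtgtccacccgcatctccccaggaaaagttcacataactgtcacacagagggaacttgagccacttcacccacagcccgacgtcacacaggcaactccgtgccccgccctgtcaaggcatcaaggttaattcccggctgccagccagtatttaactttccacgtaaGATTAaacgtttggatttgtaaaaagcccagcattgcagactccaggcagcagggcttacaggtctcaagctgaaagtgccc
Pde6h: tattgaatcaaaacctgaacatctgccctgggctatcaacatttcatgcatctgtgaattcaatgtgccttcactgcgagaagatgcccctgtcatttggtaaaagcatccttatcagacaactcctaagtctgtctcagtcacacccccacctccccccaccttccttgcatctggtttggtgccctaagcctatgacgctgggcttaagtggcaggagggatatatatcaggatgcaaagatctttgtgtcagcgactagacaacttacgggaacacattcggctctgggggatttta

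The full motif was found in none of the 12 windows of the 10 genes looked up, and in 6.13% of called genes with a window, against 7.41% of all tested genes. The core was found 3 times in the Arr3 window, beginning 116, 102 and 10 bases before the start, and 1 time in the Kcne2 window printed above, 32 bases before. It was not found in a second Kcne2 window, at chr16:92295366-92295665 (plus strand, not printed), or in the window of Pde6h. The core occurs in the windows of 20.9% of called genes and 21.5% of tested genes. Binding at these letters was not tested.

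None of 14 measured rod phototransduction genes was called, and their median was -0.01, with the row used for each member between -0.23 and 0.10. The rod transducin gene Gnat1 read 12.30, 12.27, 12.26 and 12.29 in null arrays, against 12.36, 12.31, 12.14 and 12.35 in WT arrays (difference -0.01 ± 0.0752 SE). Pde6a, Pde6b, Cnga1 and Sag, the rod phosphodiesterase, channel and arrestin genes, differed by 0.00, -0.11, 0.10 and 0.09. A second row of Cnga1, 6927456, read 11.14 ± 0.0810 in null and 11.46 ± 0.0771 in WT (SD, n = 4 each, difference -0.32), with all null arrays below all WT arrays, so the direction of Cnga1 is not settled. The members with the smallest p-values were Gnb1 (-0.23), Rdh8 (-0.21) and Rdh12 (-0.17), with limma adjusted p-values of 0.227 to 0.484. Grk1, the opsin kinase of mouse rods and cones, differed by -0.14.

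**Figure D3:**
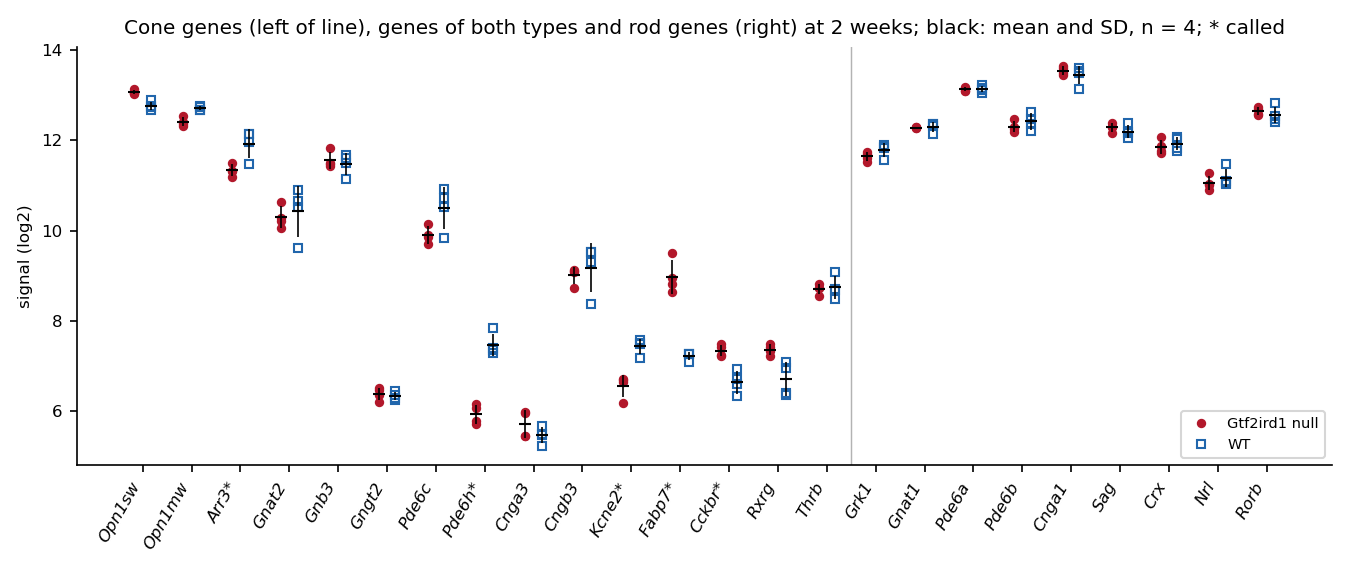
Log2 signal per array for cone genes (left of the line) and for rod genes and genes of both types (right), null as filled circles left of WT as open squares, with mean and SD in black (n = 4 each) and an asterisk for called genes. Pde6h and Fabp7, which is also a gene of progenitors and glia, show the widest gaps. Opn1sw and Opn1mw show narrow gaps in opposite directions, and rod genes near-equal groups.

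None of 20 measured photoreceptor transcription factors was called (median 0.09). Crx, Nrl and Rorb differed by -0.07, -0.11 and 0.09. Rora, a nuclear receptor that acts on cone opsins, read 8.11 to 8.31 in null and 7.73 to 8.05 in WT arrays (difference 0.36, limma adjusted p = 0.0840, passing at 0.43 without WT replicate 1), and Casz1 differed by 0.34 (limma adjusted p = 0.319). None of 19 genes of thyroid hormone and retinoid signalling was called either (median 0.08). There Dio2, the deiodinase that makes active thyroid hormone, read 9.27 to 9.80 in null and 9.66 to 10.70 in WT arrays (difference -0.72, limma adjusted p = 0.127, passing at -0.94 without WT replicate 2), and the growth factor Bmp4, also in that list, differed by 1.07 (limma adjusted p = 0.160, passing at 1.32 without WT replicate 1).

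Of 26 genes of the outer segment and its cilium, 2 fell and none rose (median -0.05). Rp1, a microtubule protein of the photoreceptor axoneme, read 10.30, 10.10, 10.24 and 10.20 in null arrays, against 10.46, 10.90, 10.83 and 10.83 in WT arrays (difference -0.55 ± 0.108 SE, limma adjusted p = 0.0220). Bbs7, a subunit of the BBSome that carries cargo to cilia, read 10.31, 10.02, 10.31 and 10.42 in null arrays, against 10.59, 11.26, 11.41 and 10.90 in WT arrays (difference -0.78 ± 0.155 SE, limma adjusted p = 0.0243). The groups were separate in both, with WT replicate 1 the WT array nearest to null. The call of Rp1 did not pass without any 1 of null replicates 2 and 3 or of WT replicates 3 and 4 (-0.56 to -0.51), and that of Bbs7 without any 1 of null replicates 1, 2 and 3 or of WT replicates 2 and 3 (-0.79 to -0.65). Fscn2, a fascin of the outer segment, differed by -0.52 (limma adjusted p = 0.0916) and passed without WT replicate 1 (-0.65).

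Axonemal dyneins, the motors of motile cilia, held 2 falls among 18 measured members (median -0.14). Dnah7b read 6.23, 5.93, 6.04 and 5.95 in null arrays, against 6.62, 7.24, 7.15 and 7.34 in WT arrays (limma adjusted p = 0.00195). Dnah9 read 8.03, 7.91, 7.99 and 8.19 in null arrays, against 8.74, 9.17, 9.24 and 8.75 in WT arrays (difference -0.95 ± 0.134 SE, limma adjusted p = 0.00225). The differences of 17 of the 18 members were negative, most of them by less than 0.3, where 11185 of all 20259 genes were negative. Dnah11, the third by p, differed by -0.22 (limma adjusted p = 0.237).

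Genes of dividing and progenitor cells moved singly. Of 29 mitotic genes Haus8 and Plk1 rose (median 0.00). Plk1 read 7.57, 7.16, 7.47 and 8.15 in null arrays, against 6.26, 6.63, 6.55 and 6.52 in WT arrays (limma adjusted p = 0.00871), while its second row overlapped (0.11). Ccna2, the S and G2 phase cyclin, differed by -0.48 (limma adjusted p = 0.0902) and passed without null replicate 1 (-0.59). Of 24 progenitor and Notch genes Fabp7 rose (median 0.11), and Hes5 and Notch1 differed by 0.52 and 0.41 (limma adjusted p = 0.160 and 0.202).

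Some families held called members that did not move with the rest. Of 15 cytochrome c oxidase subunits Cox8b and Cox5b rose (median 0.04). Cox8b read 9.53, 8.53, 9.19 and 8.96 in null arrays, against 7.62, 8.27, 6.97 and 6.98 in WT arrays. Cox5b rose by 0.46 in a row placed among rows of another chromosome (limma adjusted p = 0.0459), whereas in its other row, 6748660, null arrays lay below WT arrays (-0.56), so its direction is not settled. Without any 1 of the 4 null replicates or of WT replicates 3 and 4 the call of Cox5b did not pass (0.42 to 0.49). Of 10 replication-dependent histone genes H2ac6 and H1f2, a linker histone, fell, though the median was 0.12. H1f2 read 10.56, 10.82, 10.77 and 10.50 in null arrays, against 11.58, 11.31, 11.54 and 11.88 in WT arrays (difference -0.92 ± 0.120 SE, limma adjusted p = 0.00115). H1f1 differed by 1.04 the other way (limma adjusted p = 0.126).

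Gbp7, a guanylate-binding protein induced by interferon, fell and was the called member of 21 interferon genes (median 0.01). It read 5.47, 5.30, 5.26 and 5.33 in null arrays, against 6.07, 6.39, 6.50 and 5.81 in WT arrays (difference -0.85 ± 0.145 SE, limma adjusted p = 0.00884). The call of Gbp7 did not pass in the 8 arrays alone, with the replicate block, or with the lens term in 16 or in 8 arrays (-1.02 to -0.81, limma adjusted p = 0.0626 to 0.422). Dnajb14, a J-domain cochaperone of the endoplasmic reticulum, rose and was the called member of 23 unfolded protein response genes (median -0.01). It read 8.50, 8.56, 8.66 and 8.58 in null arrays, against 7.57, 7.32, 7.80 and 7.91 in WT arrays (difference 0.93 ± 0.124 SE, limma adjusted p = 0.00126). In the same list Canx and Eif2ak3 differed by -0.44 and 0.43 (limma adjusted p = 0.0892 and 0.164). Of 27 potassium channel genes Kcne2 fell (median 0.04), while Kcnj13, a channel of the pigment epithelium, differed by 1.12 (limma adjusted p = 0.270).

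Transcripts of vessels, matrix and pigmented tissue include called rises. In bulk RNA more cells of a type and more RNA per cell cannot be told apart. Of 20 endothelial and pericyte genes 1 rose and 18 had positive differences (median 0.23, against 9074 positive of all 20259 genes). Flt1, a VEGF receptor, read 8.30, 8.22, 8.45 and 8.54 in null arrays, against 8.09, 7.80, 7.36 and 7.48 in WT arrays (difference 0.69 ± 0.128 SE, limma adjusted p = 0.0144). The call of Flt1 did not pass without WT replicate 3 or WT replicate 4 (0.59 and 0.63). Cdh5 and Ocln, junction proteins, differed by 0.74 each (limma adjusted p = 0.0699 and 0.0798), where Cdh5 passed without WT replicate 1 (0.85). Kdr, also a marker of endothelium, went the other way and was the lowest member of the list, at -0.31. The defining marker Cldn5 was low in both groups, at 5.14 to 5.38 in null and 5.07 to 5.21 in WT arrays.

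Of 28 collagen and matrix genes Thbs4 and Fn1 rose (median 0.12). Thbs4 read 7.64, 7.05, 7.40 and 7.27 in null arrays, against 6.21, 6.83, 5.78 and 6.12 in WT arrays. Fn1, fibronectin, read 8.49, 8.29, 8.95 and 8.70 in null arrays, against 8.20, 8.17, 7.79 and 7.93 in WT arrays (difference 0.58 ± 0.131 SE, limma adjusted p = 0.0425). All null arrays were above all WT arrays in both genes. The call of Fn1 did not pass without any 1 of null replicates 1, 3 and 4 or of WT replicates 3 and 4 (0.47 to 0.62).

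Of 21 genes of the pigment epithelium and melanin 3 rose and 19 were positive (median 0.31). Tyr, the tyrosinase that starts melanin synthesis, read 6.85, 6.16, 6.46 and 5.87 in null arrays, against 5.31, 5.60, 5.18 and 5.51 in WT arrays (difference 0.94 ± 0.168 SE, limma adjusted p = 0.0122), and its other rows differed by 0.14 and 0.03. Pmel, of the melanosome, and Krt18, a keratin of epithelia, rose by 0.79 and 0.53 (limma adjusted p = 0.0284 and 0.0292). Rpe65, the isomerase that defines the tissue, read 6.17 to 7.95 in null and 5.41 to 7.90 in WT arrays, and Best1 stayed between 5.21 and 5.30 in null and between 5.24 and 5.41 in WT arrays. The call of Tyr did not pass without WT replicate 3 (0.86), that of Pmel without any 1 of null replicates 1, 2 and 3 or of WT replicates 3 and 4 (0.60 to 0.82), and that of Krt18 without any 1 of null replicates 1, 3 and 4 or of WT replicates 3 and 4 (0.44 to 0.56).

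All 20 measured lens genes were higher on average in null arrays, by 0.50 to 3.53 with a median of 2.01, and none was called. Their spread between arrays was wide: Bfsp2, a filament protein of lens fibres, read 8.63, 11.17, 8.81 and 6.96 in null arrays, against 6.58, 7.50, 6.30 and 5.76 in WT arrays (limma adjusted p = 0.194). Crygn and Crybb3, crystallins, differed by 1.75 and 2.07 (limma adjusted p = 0.121 and 0.143), and Crygn passed without null replicate 4 (2.23). The part of lens, pigment epithelium and sex in the called differences was not tested beyond the fits with a term for the lens list or for sex and the fit without the WT arrays of high Xist. With the lens term 62 of the 214 calls passed, with the sex term 90, and without both WT arrays of high Xist 112. Among named genes that passed without each array in turn, Thbs4, Cyp3a44, Serpine3, Kcne2, Gbp7 and Lrrc2 did not pass with the lens term, Thbs4, Plk1 and Lhx9 did not pass without the WT arrays of high Xist, and all passed with the sex term. In the 8 arrays alone Bpifb6, Pon1, Thbs4, Plk1, Cyp3a44, Faim, Duxbl1, Serpine3, Gbp7, Lrrc2, Raph1 and Zfp365 did not pass. Eno3, the muscle enolase, rose by 1.04 and was the called one of 14 muscle genes (median -0.08). Like the lens list, it was highest in null replicate 2 and lowest in null replicate 4 among null arrays, at 10.49, 11.21, 10.45 and 9.85 in null and 9.02, 9.91, 9.68 and 9.23 in WT arrays, so that null replicate 4 lay below WT replicate 2 (limma adjusted p = 0.0398). Its call did not pass without any 1 of null replicates 1, 2 and 3 or of WT replicates 1, 3 and 4 (0.80 to 1.11).

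Other cell types showed no called marker. None of 23 Muller glia genes was called (median 0.10), with Car14, a carbonic anhydrase, at 0.59 (limma adjusted p = 0.0639, passing without null replicate 2 at 0.74 and without WT replicate 2 at 0.66) and Aqp4, the water channel of glial endfeet, at 0.33 (limma adjusted p = 0.127). None of 14 genes of cornea, ciliary body and iris (median -0.05) and none of 4 red cell genes (median -0.43) was called, and Alas2, the haem synthesis enzyme of red cells, read 6.08 to 7.34 in null and 6.41 to 10.22 in WT arrays, a difference that passed without WT replicate 1 (-2.13). A further 16 lists with 321 measured members, among them bipolar, amacrine, ganglion and horizontal cells, microglia, ribbon synapse, glycolysis and apoptosis, held no called gene and had medians of -0.05 to 0.14.

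**Figure D4:**
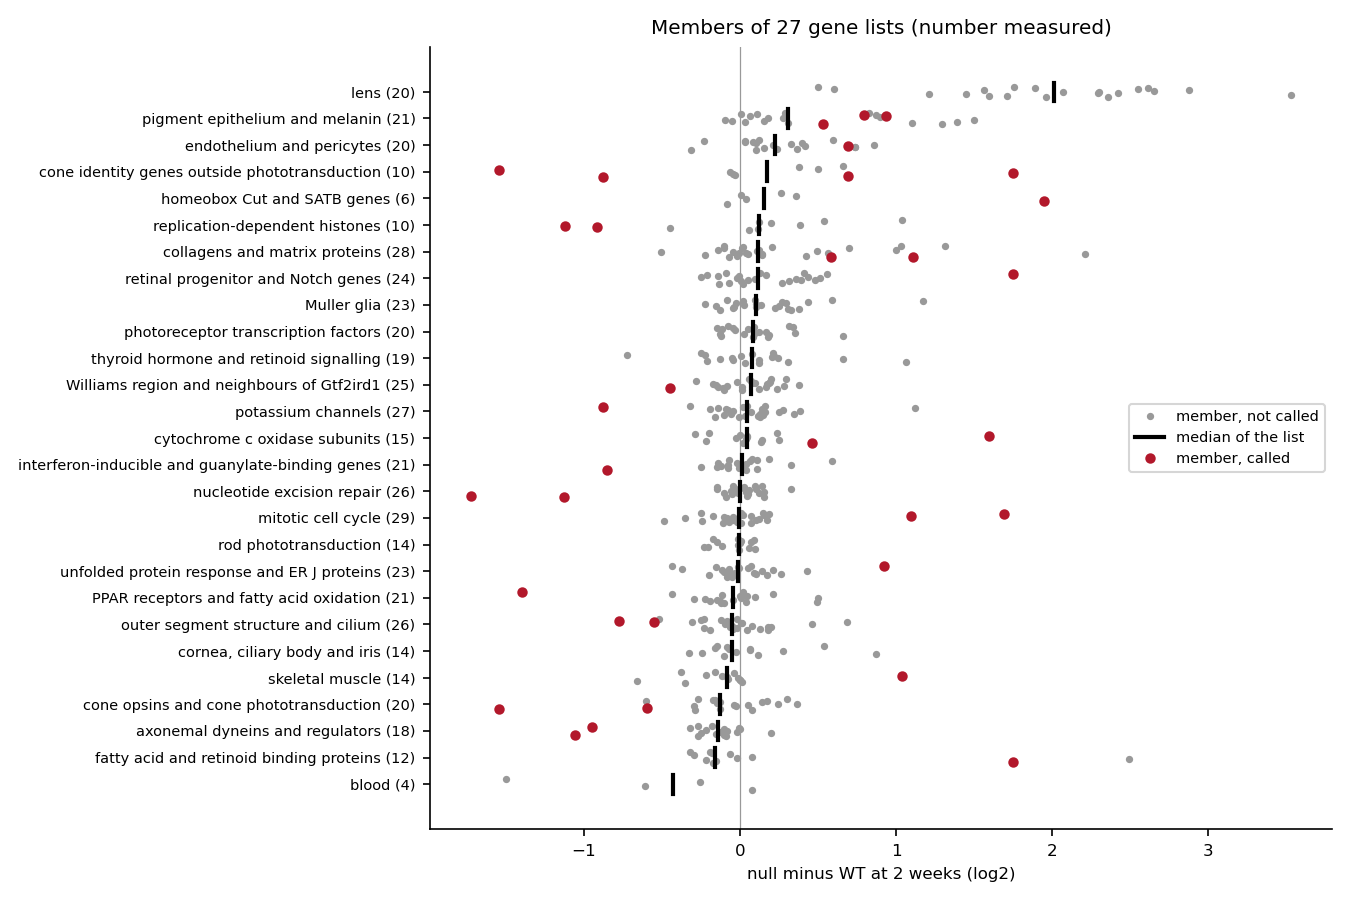
Null minus WT difference (log2) of each measured member of 27 gene lists, with called members in red, others in grey and the median of each list as a black bar. The lens list has the highest median (2.01) with no called member, the red cell list the lowest (-0.43), and most other medians lie near 0.

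Some called genes were neighbours. The gene order used here covers the 18912 genes whose rows lie among rows of their own chromosome, and calls outside it were left out. Of its 191 called genes, 22 lay in 11 pairs with at most 2 of these genes between them. How many such pairs would arise among as many genes drawn at random was not determined, so the count is descriptive. The pairs that moved together were Nek7 and Lhx9, Zfp365 and Rtkn2, Plpp2 and Mier2, Haus8 and Myo9b (higher), and H2ac6 and H1f2, Cep250 and Ergic3, and L3mbtl1 with a predicted gene (lower). In Rp1 and Mrpl15, Nbeal1 and Raph1, Knstrn and Ivd, and Snap23 and Lrrc57 the first of each pair went opposite to the second. The differences of those not given above were 0.59 for Nek7, 0.77 for Zfp365, 0.66 for Plpp2, 0.67 for Mier2, 0.38 for Myo9b, -0.42 for Cep250, -0.46 for Ergic3, -0.32 for L3mbtl1, 0.62 for Mrpl15, -0.41 for Nbeal1, 0.58 for Raph1, -0.54 for Knstrn, 0.67 for Ivd and 0.52 for Snap23. Without WT replicate 3 the calls of 15 of the 21 named genes in these pairs did not pass (adjusted p = 0.0599 to 0.150), and those of Raph1, Lhx9, Zfp365, H2ac6, H1f2 and Haus8 did. Within this gene order the share called ran up to 1.61% on chromosome 2 (26 of 1611 genes), where 191 of the 18912 genes were called in all. The share over all 20259 genes, inside and outside the order, was 1.06%. All 10 called genes of chromosome 17 in the order were higher in null, as were all 4 of chromosome 12 and the 2 of chromosome 19. Of the 191 called genes in the order 118 were higher, and of all called genes 59.8%.

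At 4 months the same contrast can be set beside that of 2 weeks. The arrays are separate, but the fit shares the estimate of each gene's spread over both ages. Calls at the 2 ages are therefore not independent. The imbalance of Xist also recurs in part: it read 13.3 in WT replicate 4 of 4 months and was low in the other arrays of that age. Of the 214 genes called at 2 weeks, 180 (84.1%) had a difference of the same sign at 4 months, where the share over all genes was 56.0%, and 186 were smaller in size. Their median size was 0.67 at 2 weeks and 0.21 at 4 months, and 37 were called at both ages. Called at both were Cux2 (2.52 at 4 months), Haus8 (2.39), Dnajb14 (2.25), Rxfp1 (1.87), Ppara (-2.28), Cdcp3 (-2.08), Akr1e1 (-1.98), Dnah7b (-1.45), Dnah9 (-1.20), Ercc5 (-1.16), Pde6h (-1.13), Bbs7 (-0.85), Gbp7 (-0.83), Rp1 (-0.63) and Pla2r1 (-0.48). Not called at 4 months were Fabp7 (0.21), Cox8b (-0.08), Bpifb6 (0.11), Pon1 (-0.15), Duxbl1 (-0.10), Ercc2 (-0.29), Arr3 (-0.08), Kcne2 (-0.52) and Tyr (0.15). The genes were chosen by their test at 2 weeks.

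Whether a difference changed with age was tested by the interaction, the difference at 2 weeks minus that at 4 months. It passed in 2 of 20259 genes (0.00987%), and 1199 had an unadjusted limma p under 0.05. Fabp7 averaged 8.97 ± 0.372 in null and 7.23 ± 0.0859 in WT at 2 weeks, and 6.13 ± 0.177 in null and 5.92 ± 0.0869 in WT at 4 months (SD, n = 4 each). Its difference was 1.54 ± 0.202 SE larger at 2 weeks (limma adjusted p = 0.0107). Dnajb14 averaged 8.57 ± 0.0660 in null and 7.65 ± 0.264 in WT at 2 weeks, and 10.06 ± 0.120 in null and 7.81 ± 0.203 in WT at 4 months. Its difference was smaller at 2 weeks, by -1.33 ± 0.175 SE (limma adjusted p = 0.0107). Neither interaction passed under median centring or with the replicate block, and that of Dnajb14 did not pass with the lens term.

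The next genes by p did not pass. Drc3, of the ciliary dynein regulatory complex, differed by -0.27 at 2 weeks and -1.40 at 4 months (interaction 1.13, limma adjusted p = 0.105), and Lrrc2 by -0.52 and -1.21 (interaction 0.70, limma adjusted p = 0.124). Zgrf1, P4ha1, Olfr686, Tapt1, Ip6k3 and Olfr684 had limma adjusted p-values of 0.101 to 0.147 for the interaction. The count of 2 was 20 without WT replicate 1 and 9 without WT replicate 2 of 2 weeks, and from 2 to 3 without any other single array of that age. Rxrg had an interaction that passed in the fit with the sex term, where 3 genes did.

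**Figure D5:**
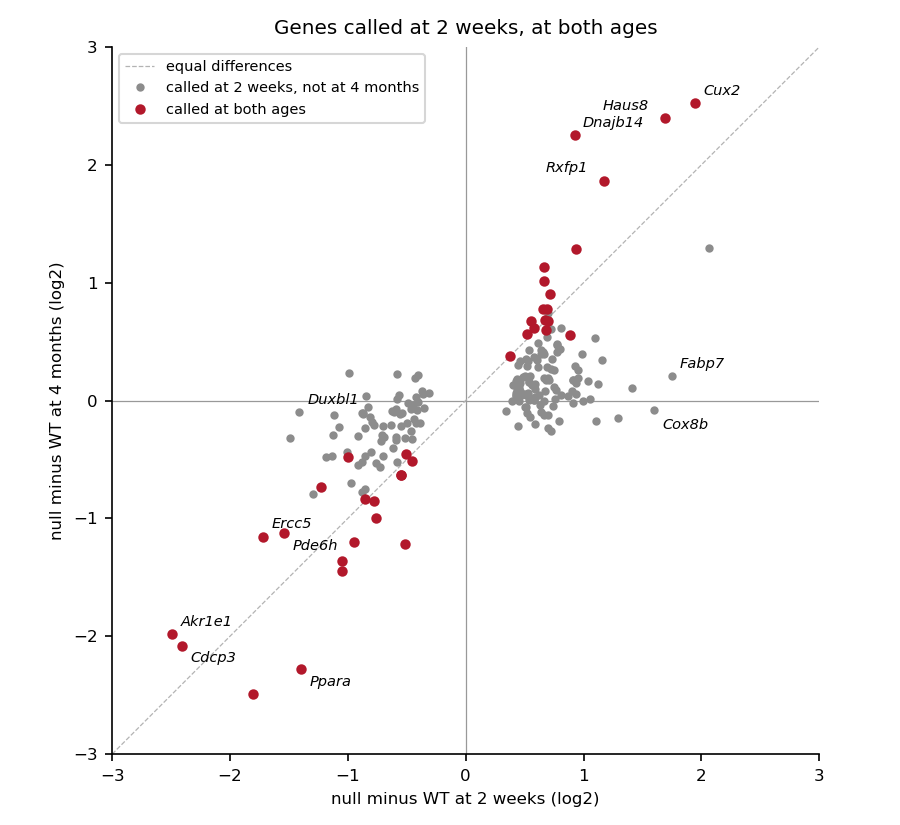
Null minus WT difference at 4 months (vertical) against that at 2 weeks (horizontal), log2, for the 214 genes called at 2 weeks, red where also called at 4 months, with a dashed line of equal differences. Cux2, Haus8, Dnajb14, Rxfp1 and Ppara lie farther from 0 at 4 months, while Fabp7, Cox8b and Duxbl1 lie near the horizontal axis.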

How the data were processed

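Gene expression was measured in mouse retinas, 1 array each. The authors deposited log2 values for each transcript cluster, made with Partek and RMA on build mm8, per the submitters' processing notes; versions of these are not given in the sources used here. A log base of 2 was inferred from the range of 3.76 to 15.7. No further scaling or filter on low signal was applied, and with 4 arrays a group their number sets the precision. Of 115830 rows, 25539 named 1 gene, which gave 20259 genes. Names came from the array annotation in the files, and promoters and gene order from RefSeq (GRCm38.p6).

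Differences were tested with lmFit and eBayes of limma 3.58.1 (R 4.3.3), fitting 4 group means to all 16 arrays at once, with 12 residual degrees of freedom and no covariates. Calls used a Benjamini-Hochberg adjusted p under 0.05 over all genes. The Gtf2ird1 rows were also compared by two-sided exact permutation tests. The members and the 44 gene lists were chosen with earlier results of these data known, so lists are described by counts and medians without a test. Named are the Gtf2ird1 family, the 15 largest rises and 15 largest falls without overlap between groups, up to 6 called members and at least 3 members of each described list, core photoreceptor genes, the leading interactions with age and pairs of called neighbours. Nr2e3 had no row with 1 gene and was not analysed here. In data simulated for this comparison over 20259 genes, 52% of added differences of 0.5, 86% of 1, 98% of 1.5 and 100% of 2 log2 units were called, with 7 unchanged genes among 175 calls. The simulated noise was normal and independent between genes and arrays. It held no shared effect of lens, sex, age or an outlying array, as the real arrays may. These shares therefore do not give the false-call rate of the real calls.

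Same-numbered null and WT arrays had residual correlations of -0.18, -0.20, 0.11 and 0.23, against -0.31 to 0.40 for arrays of unlike number. These values show no pairing by number. They cannot exclude one, since residuals are centred within groups of 4 arrays. The alternatives were quantile normalization, median centring, restriction to genes of at least median signal, averaging all rows of a gene, only the 8 arrays, eBayes with trend and robust, array weights, a replicate block, terms for sex and for the lens list, leaving out the WT arrays with high Xist, and omission of single arrays. Added after seeing the data were the lens term in the 8 arrays and a fit of all rows.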

Additional observations from a re-analysis of the deposited data

Results flagged for a closer look

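In 272 groups of 4 arrays of named genes, 16 held an array whose gap to the nearest other was large against the range of its group, which is 5.88%, where chance gives about 1 in 20. WT replicate 1 was set apart for Fabp7 (7.10), Rp1 (10.46), Acaa2 (6.38), Ifit3 (8.75) and Cldn4 (5.56). WT replicate 4 was set apart for Ercc2 (8.98) and Nrl (11.47), and WT replicate 3 for Nbeal1 (10.75). Null replicate 3 was set apart for Gtf2ird1 row 7008782 (10.60), Kcne2 (6.19) and Cdh5 (8.33). Null replicate 4 was set apart for Pvalb (7.88), Gnb3 (11.83) and Zfp365 (9.46), and null replicate 2 for Cngb3 (8.73) and Knstrn (5.55).

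The null minus WT difference changed between 2 weeks and 4 months in Fabp7 (1.54) and Dnajb14 (-1.33), by the test of the interaction, though neither passed under median centring or with the replicate block, and Dnajb14 did not with the lens term.

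Rows that name several genes or none stand outside the comparison of genes. When all rows of the table were fitted together, 592 rows with no gene and 18 with several genes were called at 2 weeks. Row 6966119, with no gene, read 11.6 ± 0.240 in null and 5.17 ± 0.227 in WT arrays (SD, n = 4 each), a difference of 6.39 (limma adjusted p = 3.03e-11), and 7.71 at 4 months. Row 6862642 read 10.1 ± 0.0880 in null and 5.28 ± 0.197 in WT arrays, a difference of 4.84, and 4.96 at 4 months.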

How the results depend on the processing

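The 214 calls (128 higher, 86 lower) stayed within 1.5 times under quantile normalization, restriction to genes of at least median signal, averaging of rows, and eBayes with trend and robust (194 to 239). Median centring gave 134, of which 76.9% were higher against 59.8%, with 31 lower. The 8 arrays alone gave 43 (16 higher, 27 lower), array weights 491 (231 and 260), the sex term 109 (48 higher), and leaving out both WT arrays with high Xist 247, of which 156 were lower and 112 were among the 214. With the replicate block Lhx9, H2ac6 and Gbp7 were among the named genes not called. The block, for which a pairing by replicate number was neither shown nor excluded, gave 93 (58 higher, 35 lower) and 0 interactions, with 1115 at an unadjusted p under 0.05. The lens term gave 66 (44 and 22) and 1 interaction. On the 8 arrays it gave 4 (4 higher, 0 lower), Cux2, Bpifb6 and Rxfp1 among them, with 1098 genes at an unadjusted limma p under 0.05. All rows of the table gave 846 (447 and 399) and 20 interactions. Leaving out 1 array gave 77 to 525 calls (45 to 204 higher, 32 to 321 lower) and 2 to 20 interactions. The 2 interactions became 0 with median centring (1089 at an unadjusted p under 0.05), 38 with array weights and 16 without the WT arrays with high Xist. No gene of the 214 that was also called in another of these fits of genes had the opposite sign there.

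Gtf2ird1 row 7008782 no longer passed under quantile normalization (0.16), and the mean of all rows turned Gtf2ird1 to -2.97 and Cox5b to -0.051. Of 63 called named genes, 32 passed without each array in turn. Cux2 passed in all 20 alternatives. Rxfp1 passed in the 19 that held it, as the fit restricted to genes of at least median signal left it out. Fabp7, Haus8, Akr1e1, Cdcp3, Ercc5, Pde6h, Ppara, Lrrc66, Ercc2, Dnah7b, Pla2r1, Dnah9, H1f2 and Dnajb14 passed in all but the lens term on 8 arrays. Pla2g4e, also left out of the restricted fit, passed in all its others but that same lens term. Of 2689 comparisons of a named gene under an alternative, 2270 kept the call or its absence, 379 lost a call, 38 gained one and 2 reversed. Signals near the floor of the array limit how far a fall can be measured. The causes were not tested.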
